A study of Mus musculus with 6 samples.

Results

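The aquaporin genes encode membrane channels that let water, and in some members glycerol, cross cell membranes. The members studied here were the 10 genes Aqp1 to Aqp9 and Aqp11, found by symbol among 55401 gene IDs, and all 10 were in the count tables. Polyadenylated RNA came from primary mouse cholangiocytes, the lining cells of bile ducts, taken from animals labelled PLD (polycystic liver disease) and of wild-type (WT) animals, 3 months after tamoxifen in both groups. Each group held 3 libraries. Cells of perfused and collagenase-digested livers were taken with an antibody against the epithelial surface protein EpCAM on magnetic beads. The labels name neither the gene altered in the PLD animals nor a Cre driver, strain, sex or age, and whether each library is a separate animal is not stated. The p-values below therefore rest on the spread between these libraries, which may be technical.

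Aquaporins assemble as tetramers in which each subunit forms its own pore. In bile ducts, secretin and cAMP drive the release of chloride and bicarbonate into the lumen, and water follows by osmosis through aquaporin 1 and related channels. Aquaporin 1 is also abundant in the endothelium of many organs and in red blood cells, aquaporin 5 is the apical water channel of salivary and lung epithelium, and aquaporins 3, 7 and 9 also carry glycerol. Fluid secretion into the lumen is one of the processes by which liver cysts enlarge.

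The libraries held between 15768561 and 16710548 counted reads. Across genes, Pearson r within a group was at least 0.971, with PLD replicate 1 and WT replicate 1 the farthest from the others of their group. With edgeR (quasi-likelihood F test, Benjamini-Hochberg adjusted p under 0.05), 55.4% of 15334 tested genes differed between PLD and WT, 27% higher and 28.4% lower in PLD, and the median log2 fold change over all genes was 0.01. Among 20 cholangiocyte markers 15 were higher and 2 lower in PLD, Krt19 and Epcam being detected in every library, and all 23 endothelial markers were lower. In bulk RNA, fewer cells of a type and less RNA per cell cannot be told apart, and this holds for every difference given here.

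The 10 genes together averaged 317 ± 45.2 CPM (reads per 1000000 normalised library reads) in PLD and 1948 ± 172 CPM in WT (SD, n = 3 libraries each), with every PLD library below every WT library. The water channel gene Aqp1 made up nearly all aquaporin reads in WT and was 8.63-fold lower in PLD. Aqp5, Aqp3 and Aqp11 were higher in PLD, and Aqp3 was close to absent in WT. Aqp8 was read almost only in WT libraries, mostly in 1 of them. Aqp9 did not pass the test, and Aqp2, Aqp4, Aqp6 and Aqp7 had at most 9 reads in any library.

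Of the 10 genes, 5 passed the filter on low counts and were tested. Among these, 3 were higher in PLD (27% of all tested genes were) and 1 was lower (28.4% of all tested genes were). The PLD and WT libraries were fully separated for 4 of the 5 (66.2% of all tested genes), with PLD above WT for 3 (33% of all tested genes) and below for 1 (33.2% of all tested genes). The filter keeps genes with enough reads in as few as 3 libraries, so a gene read in 1 group alone can pass through that group. Aqp3 passed through its PLD reads, so the filter favoured its place in these counts.

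**Figure D1:**
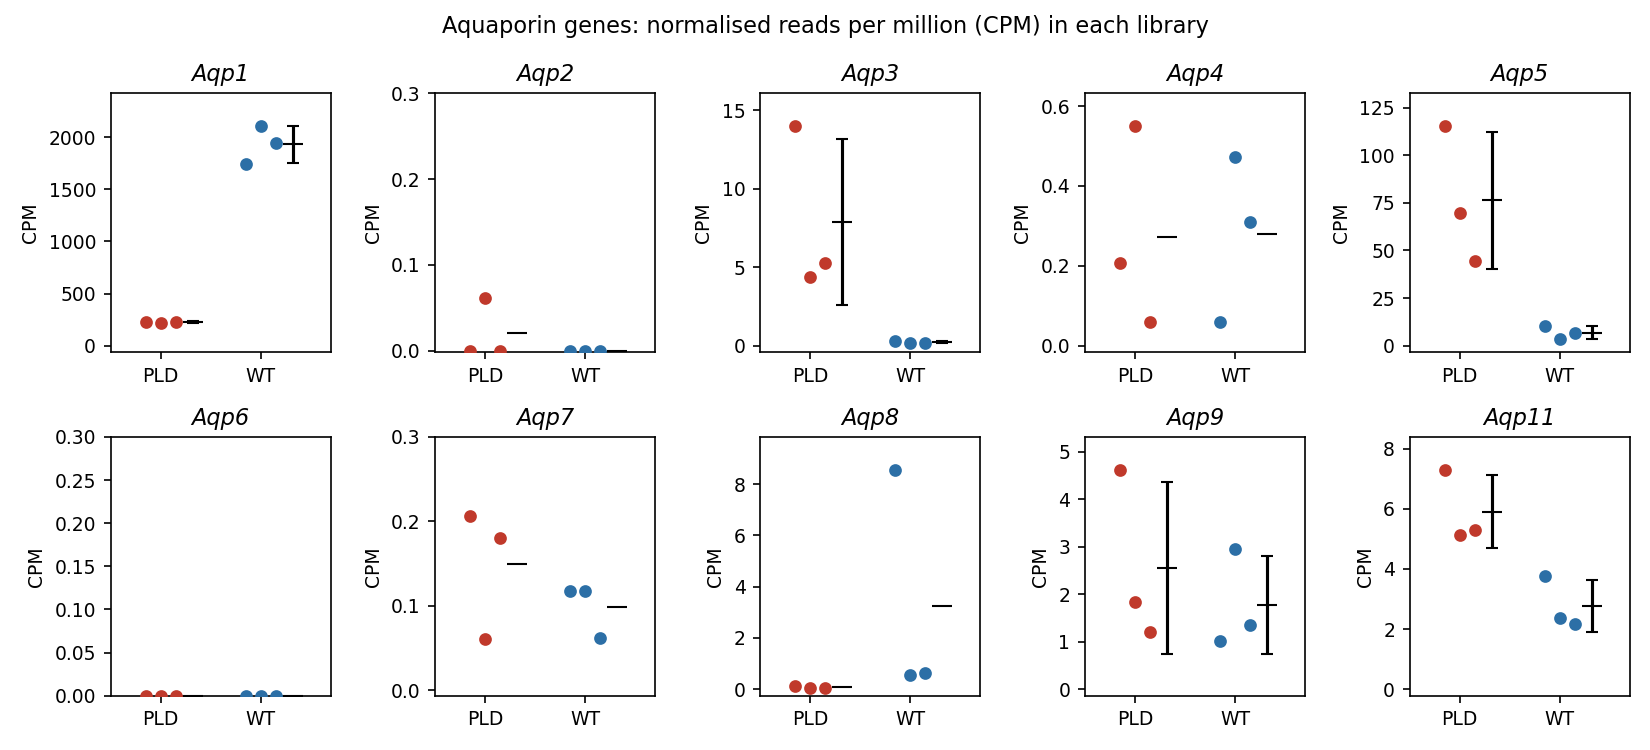
Normalised read level in CPM (vertical axes, each with its own range) of the 10 aquaporin genes in the 3 PLD and 3 WT libraries (points). The black mark is the group mean, with the SD as a bar for the 5 tested genes, and Aqp1 in PLD lies between 214 and 230 CPM, below every WT value.

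Aqp1 encodes a water channel of the bile duct and of endothelium (ENSMUSG00000004655.5, mm10 chromosome 6, 55336432 to 55348555, plus strand). Its level was 228, 214 and 230.3 CPM in PLD replicates 1 to 3, and 1747, 2105 and 1947 CPM in WT replicates 1 to 3. The groups did not overlap, and the 3 PLD values lay close together. The means were 224 ± 8.63 CPM in PLD and 1933 ± 179 CPM in WT (SD, n = 3 libraries each), a log2 fold change of -3.11 ± 0.13 SE (edgeR adjusted p = 2.53e-05). Leaving out single libraries gave values between -3.18 and -3.04.

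Aqp5 encodes a water channel of the luminal membrane of glands (ENSMUSG00000044217.17, chromosome 15, 99590782 to 99594829, plus strand). Its level was 115, 69.9 and 44.2 CPM in the PLD libraries, and 10.03, 3.54 and 6.80 CPM in the WT libraries. Every PLD library was above every WT library, and PLD replicate 1 was the highest. The means were 76.4 ± 35.9 CPM in PLD and 6.79 ± 3.25 CPM in WT (SD, n = 3 each), an 11.2-fold rise (log2 fold change 3.49 ± 0.46 SE, edgeR adjusted p = 6.90e-04).

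Aqp3 encodes a water and glycerol channel of the basolateral membrane in kidney and skin epithelium (ENSMUSG00000028435.8, chromosome 4, 41092722 to 41098183, minus strand). It had 203, 72 and 88 reads in the PLD libraries, and 5, 3 and 3 reads in the WT libraries. The WT counts were at or just above 3 reads, the amount taken as the floor of detection in a library. On the CPM scale the PLD values were 14.0, 4.39 and 5.28, and the WT values lay between 0.177 and 0.295. The log2 fold change was 5.11 ± 0.61 SE (edgeR adjusted p = 4.67e-04), and without PLD replicate 1, the highest library, it was 4.42. The ratio of summed reads per total reads was 32.9, PLD over WT, with a 95% exact binomial interval of 18.2 to 66.4. Because the reads of each group were summed, this interval and those below cover counting error only and leave out the spread between libraries. Molecular identifiers are not mentioned in the labels.

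Aqp11 encodes an intracellular aquaporin of the endoplasmic reticulum, and mice without it develop polycystic kidneys (ENSMUSG00000042797.9, chromosome 7, 97724006 to 97738289, minus strand). Its level was 7.30, 5.12 and 5.28 CPM in PLD, and 3.78, 2.36 and 2.16 CPM in WT. The groups did not overlap, but the gap between 5.12 CPM in PLD and 3.78 CPM in WT was smaller than the range within PLD. The log2 fold change was 1.09 ± 0.29 SE (edgeR adjusted p = 0.0139), and the call was lost without WT replicate 3 (adjusted p = 0.0561).

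Aqp9 encodes the glycerol channel through which rodent hepatocytes take up glycerol, and it is also found in leukocytes (ENSMUSG00000032204.13, chromosome 9, 71110659 to 71168682, minus strand). Its level was 4.61, 1.83 and 1.20 CPM in PLD, and 1.00, 2.95 and 1.36 CPM in WT. The groups overlapped, each with 1 library above its others. The log2 fold change of 0.51 ± 0.59 SE did not pass (edgeR adjusted p = 0.485), and without PLD replicate 1 it changed sign to -0.22. The summed level of 18 hepatocyte markers was 3428, 6987 and 7609 CPM in PLD, and 1657, 2697 and 2640 CPM in WT. This sum was lowest in the PLD library and highest in the WT library with the most Aqp9. Alb, which did not pass the test, had the highest mean of these markers, 3968 CPM in PLD and 1575 CPM in WT. With each marker weighted alike, as the mean of log2 of CPM plus 1, the order differed within PLD and between the groups. Within WT it stayed the same. These means were 4.06, 3.97 and 4.13 in PLD, and 3.92, 5.43 and 4.80 in WT. PLD replicate 1, with 67 Aqp9 reads, had a summed level of 8 neutrophil markers of 21.4 CPM, against 8.97 and 7.75 CPM in the other PLD libraries. In WT replicates 1 to 3 that sum was 38.1, 21.7 and 42.2 CPM, lowest in replicate 2, which had the most Aqp9 in WT. The part of hepatocytes and neutrophils in the Aqp9 values was not tested.

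**Figure D2:**
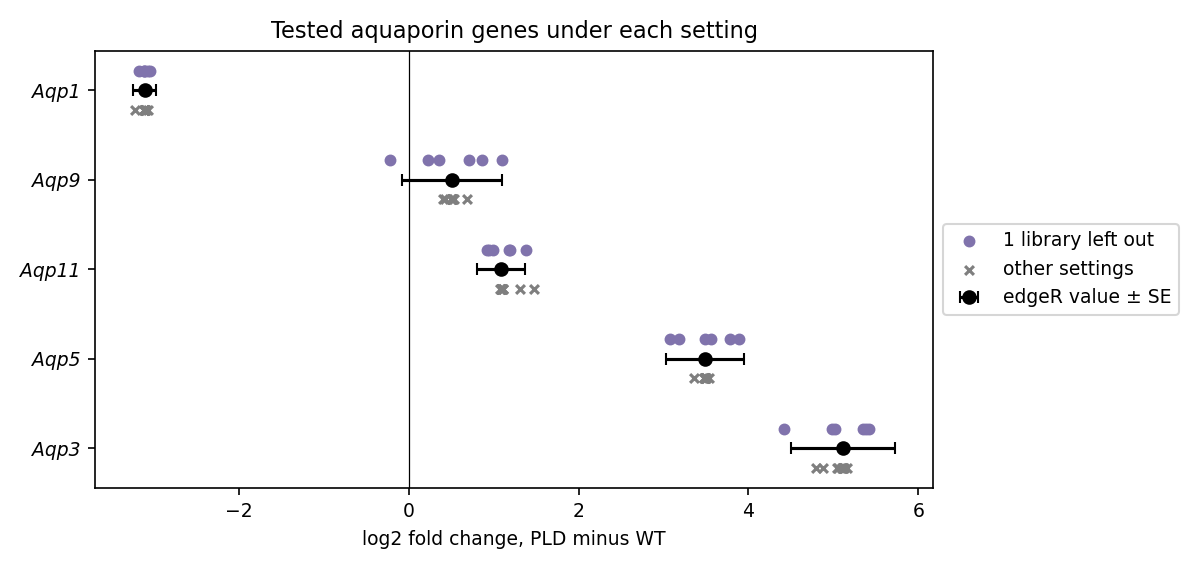
Log2 fold change, PLD minus WT (horizontal axis), of the 5 tested aquaporin genes. Black points are edgeR values with the SE, purple points leave out 1 library and grey crosses are the other settings, and only Aqp9 has a value on the other side of 0 (-0.22, without PLD replicate 1).

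Aqp8 encodes a water and ammonia channel of rodent hepatocytes and of colon and pancreas epithelium (ENSMUSG00000030762.11, chromosome 7, 123462291 to 123468004, plus strand). It had 2, 1 and 1 reads in the PLD libraries, and 145, 9 and 10 reads in the WT libraries. No PLD library reached the WT values, and WT replicate 1 held most of the reads. It did not pass the filter on low counts, so it has no test in the main comparison. Per total reads the ratio of PLD to WT was 0.0243 (95% exact binomial interval 0.00654 to 0.0634), and it was 0.140 (0.0345 to 0.420) without WT replicate 1. Both intervals leave out the spread between libraries. When genes of low counts were kept in, edgeR gave -5.12 on the log2 scale (adjusted p = 0.00191). Aqp8 also passed the filter in some runs with 1 library left out. There edgeR called it without PLD replicate 1 (adjusted p = 0.0413) and without WT replicate 2 (adjusted p = 0.0113). It was not called without PLD replicate 2 (adjusted p = 0.0669) or PLD replicate 3 (adjusted p = 0.0601). Without WT replicate 1 or WT replicate 3 it was not tested.

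In WT replicate 1 several genes known from intestinal epithelium, and 1 from pancreas, also had many more reads than in the other WT libraries. The chloride and bicarbonate exchanger gene Slc26a3 had 56, 5 and 7 reads in PLD, and 342 reads in WT replicate 1 against 3 and 1 in the other WT libraries. The sodium and proton exchanger gene Slc9a3 had 27, 2 and 0 reads in PLD, and 466, 2 and 5 in WT, and the membrane mucin gene Muc3 had 36, 3 and 1 in PLD, and 754, 2 and 0 in WT. Over 17 intestinal markers, a list written after these values were seen, the summed level was 757 to 1568 CPM in PLD, where Krt20 and Lgals4 had most of the reads, and 231, 35.6 and 41.8 CPM in WT replicates 1 to 3. Of 7 tested members of that list 5 were higher and 0 lower in PLD (27% and 28.4% of all tested genes were). The defining genes Cdx1 and Car1 had 0 reads in every library, the factor gene Cdx2 had 0, 3 and 7 reads in PLD, and 0, 1 and 0 in WT, and the surface antigen gene Gpa33 had 11, 0 and 2 in PLD, and 67, 2 and 1 in WT. The pancreatic protease gene Ctrb1 had 18, 15 and 15 reads in PLD, and 1559, 10 and 6 in WT, whereas the pancreatic enzyme genes Prss2 and Pnlip had 0 reads in every library and Cpa1 and Cpb1 had 0 in PLD and 1 in WT. The hepatocyte sum given above was lowest in WT replicate 1 among the WT libraries. The part of these cell types in the Aqp8 reads was not tested.

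The other members were at or near the floor. Aqp4, the water channel gene of astrocytes, had 3, 9 and 1 reads in PLD, and 1, 8 and 5 in WT, a ratio of 0.925 with an interval of 0.400 to 2.12. Aqp7, the glycerol channel gene of fat and capillaries, had 3, 1 and 3 reads in PLD, and 2, 2 and 1 in WT (ratio 1.39, interval 0.381 to 5.57). For both, a difference was not detectable at this depth. Aqp2, the vasopressin-regulated channel gene of the kidney collecting duct, had 1 read in all, in PLD replicate 2, and Aqp6, a channel gene of kidney intercalated cells, had 0 reads. Outside the 10 genes, the lens aquaporin gene Mip had 0 reads in PLD and 3 in WT, Aqp12 had 0 in both groups, and the pseudogene Aqp10-ps had 0 in PLD and 2 in WT.

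Levels of different genes were set against each other per length, as CPM per kb of exon model. In PLD the order was Aqp1 (85.3 ± 3.28), Aqp5 (29.4 ± 13.8), Aqp3 (4.31 ± 2.90), Aqp11 (0.627 ± 0.129) and Aqp9 (0.615 ± 0.439). Aqp11 and Aqp9 overlapped there, while the libraries of each earlier neighbouring pair did not. In WT the order was Aqp1 (736 ± 68.2), Aqp5 (2.61 ± 1.25), Aqp8 (2.05 ± 2.91), Aqp9 (0.427 ± 0.250), Aqp11 (0.294 ± 0.0935) and Aqp3 (0.120 ± 0.0360), all mean ± SD over 3 libraries. From Aqp5 to Aqp11 each WT gene overlapped with the next one. Aqp3 thus came next after Aqp5 in PLD and was below Aqp11 in every WT library.

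Summed over the 10 genes, the level per length was 141, 112 and 109 CPM per kb in PLD, and 675, 804 and 745 CPM per kb in WT. The PLD libraries all lay below the WT libraries. Aqp1 had 61.6%, 72.8% and 80.8% of this sum in PLD replicates 1 to 3, and between 98.5% and 99.6% in WT. Aqp5 had between 15.7% and 31.5% in PLD, and between 0.169% and 0.572% in WT. Aqp3 had between 2.14% and 5.43% in PLD, and between 0.0120% and 0.0239% in WT. The 3 PLD libraries thus had a wider range of make-up than the WT libraries, with the largest Aqp5 and Aqp3 shares in PLD replicate 1.

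**Figure D3:**
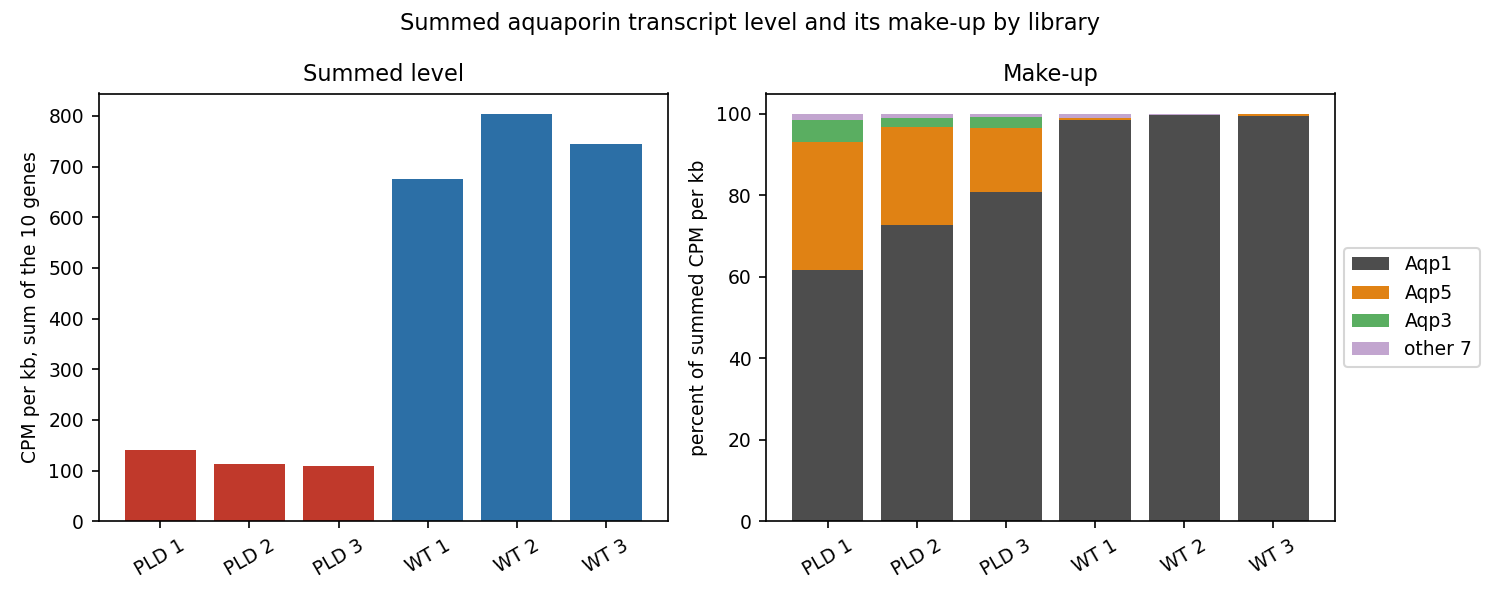
Summed level of the 10 aquaporin genes in CPM per kb of exon model (left) and the percent of that sum from Aqp1, Aqp5, Aqp3 and the other 7 genes (right) in each library. Aqp1 falls to between 61.6% and 80.8% of the sum in PLD, against at least 98.5% in WT.

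The 2 directions were also set beside genes of epithelium and endothelium within each library. Per 100 Epcam reads, Aqp1 had 16.7 to 25.1 reads in PLD, and 443, 828 and 468 in WT. Aqp5 had 8.45, 7.19 and 4.81 per 100 Epcam reads in PLD, and 2.54, 1.39 and 1.63 in WT, and Aqp3 had 0.451 to 1.03 in PLD and 0.0445 to 0.0748 in WT. Relative to Epcam, Aqp1 was therefore lower and Aqp5 and Aqp3 higher in PLD without overlap. Epcam itself was 1.61 ± 0.24 SE higher in PLD on the log2 scale (edgeR adjusted p = 0.00107), which lowers every ratio to it in PLD. Aqp11 had 0.527 to 0.575 per 100 Epcam reads in PLD and 0.519 to 0.958 in WT, with overlap.

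Relative to other markers the picture differed. Per 100 Krt19 reads, Aqp5 had 2.72, 1.74 and 1.24 reads in PLD, and 1.82, 1.21 and 1.74 in WT, and these overlapped, as Krt19 itself was 3.26 ± 0.25 SE higher on the log2 scale (edgeR adjusted p = 8.39e-05). Aqp3 per 100 Krt19 reads was 0.110 to 0.330 in PLD and 0.0475 to 0.0605 in WT, with no overlap. Aqp11 per 100 Krt19 reads was 0.128 to 0.172 in PLD and 0.555 to 0.807 in WT, lower in PLD without overlap, the opposite of its direction in CPM. Per 100 reads of the endothelial adhesion gene Pecam1, Aqp1 had 371, 277 and 242 reads in PLD, and 212, 195 and 215 in WT. Each PLD ratio was above each WT ratio, but this depended on the marker. Set against each of the 23 endothelial markers in turn, Aqp1 was higher in PLD without overlap for 8, lower without overlap for 2 (Cd34 and Sox17) and overlapped for 13. Per 100 summed reads of the 23 genes, Aqp1 had 32.01, 20.3 and 18.5 reads in PLD, and 20.4, 19.2 and 18.1 in WT, with overlap. Of the 23 markers 15 had a log2 fold change below that of Aqp1 (-3.11), such as Pecam1 at -3.59 ± 0.20 SE (edgeR adjusted p = 3.75e-05), and 8 lay above it, such as Cd34 at -1.28 ± 0.27 SE (edgeR adjusted p = 0.00510).

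**Figure D4:**
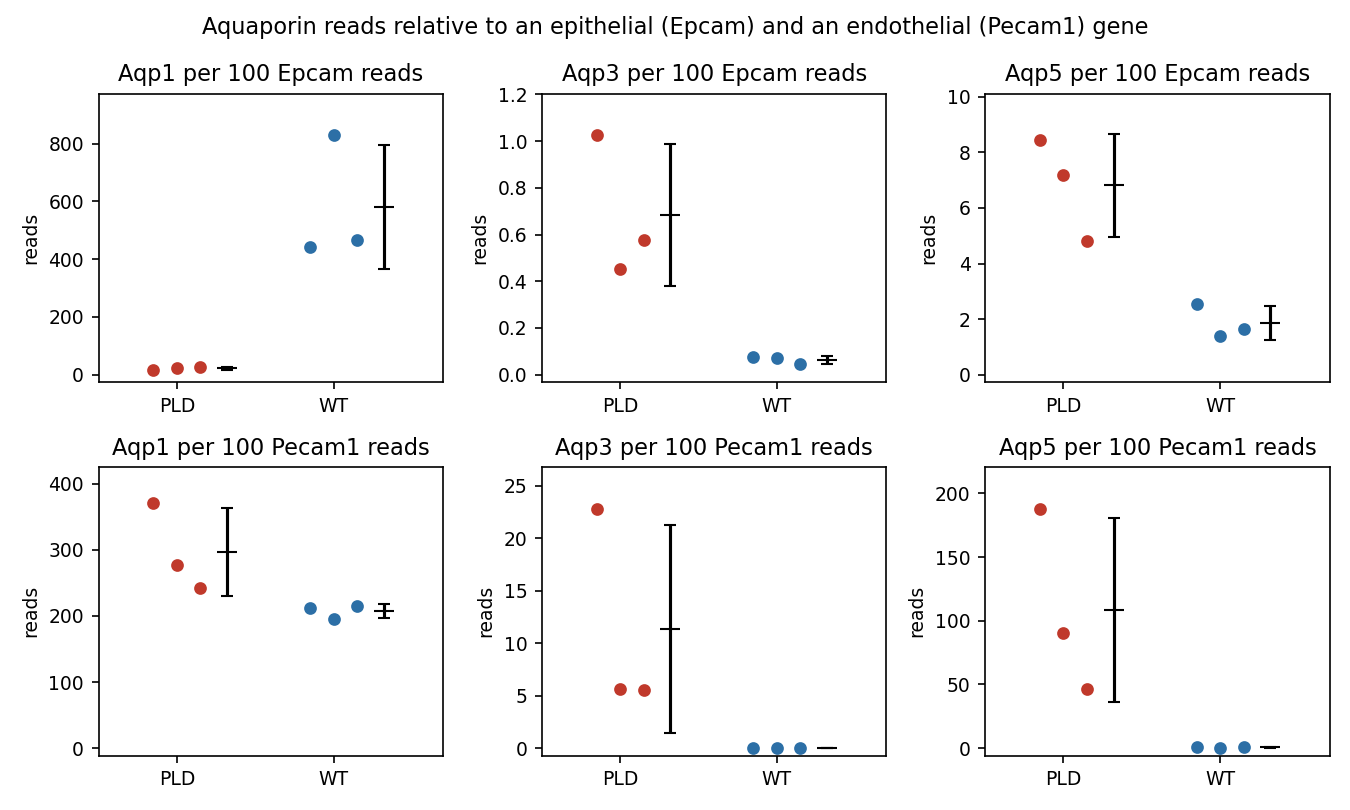
Reads of Aqp1, Aqp3 and Aqp5 per 100 reads of Epcam (top) and of Pecam1 (bottom) in the 3 PLD and 3 WT libraries (points), with the group mean and SD in black. Aqp1 per 100 Epcam reads is 16.7 to 25.1 in PLD and 443 to 828 in WT, and per 100 Pecam1 reads it is 242 to 371 in PLD and 195 to 215 in WT, a direction that overlapped or turned for 15 of the 23 endothelial markers.

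The summed level of the 23 endothelial markers was 711, 1056 and 1242 CPM in PLD, and 8555, 10957 and 10766 CPM in WT, with none of them at 0 in either group. Smooth muscle markers, 8 of 8 lower, summed to 139 to 240 CPM in PLD and 2351 to 2507 CPM in WT. Over all tested genes 27% were higher and 28.4% lower in PLD. Of 18 hepatocyte markers 4 were higher and 9 lower, and of 5 tested neutrophil markers 0 were higher and 2 lower. The count of lower neutrophil markers was 5 without PLD replicate 1, 0 without PLD replicate 2 and 1 without WT replicate 3. Markers of fibroblasts (1 higher and 12 lower of 16), mesothelium (3 and 4 of 8) and glia and neurons (1 and 6 of 7) also differed. Of 13 macrophage markers 3 were higher and 1 was lower, or 2 lower without PLD replicate 1 or 3. Of 6 adipocyte markers only 1, Fabp4, was tested in the main comparison, and it was lower. When any of 4 libraries was left out, 1 adipocyte marker was higher. Within PLD the endothelial sum was lowest in replicate 1, whereas Aqp1 (228, 214 and 230 CPM) did not follow that order. Within WT, Aqp1 (1747, 2105 and 1947 CPM) had the same order as the endothelial sum. Cholangiocyte markers summed to 47962, 38250 and 35282 CPM in PLD, the same order as Aqp5 but not as Aqp3 (14.0, 4.39 and 5.28 CPM). In WT they summed to 14027, 10637 and 15351 CPM, highest in replicate 3. Aqp5 in WT was highest in replicate 1 (10.03, 3.54 and 6.80 CPM). Of the 8 erythroid markers 0 passed the filter (1 was lower when any PLD library or WT replicate 1 was left out), and their sum was 0.488 to 0.758 CPM in PLD and 2.06 to 2.36 CPM in WT. The part of red, endothelial and epithelial cells in the Aqp1, Aqp3 and Aqp5 values was not tested.

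By position, Aqp2, Aqp5 and Aqp6 lie in a row on chromosome 15, on the same strand, with 6235 bases between Aqp2 and Aqp5 and 6571 bases between Aqp5 and Aqp6. Of this row Aqp5 had 3554 reads in PLD and 340 in WT, while Aqp2 had 1 read in all and Aqp6 had 0. Aqp7 and Aqp3 lie 44583 bases apart on chromosome 4, and Aqp3 had 363 reads in PLD and 11 in WT, against 7 and 5 for Aqp7. Exons of the 10 genes shared 0 bases with exons of other genes in the tables, on either strand. Within 100 kb of a member 18 other genes were tested, of which 9 were higher and 1 lower in PLD, where 55.4% of all tested genes were called. The largest log2 fold changes among them were 2.44 for Aldh1a2, 1.80 for Faim2, 1.64 for Pak1 and 1.62 for Bag1. Aldh1a2 lies 47107 bases from Aqp9, Pak1 50252 bases from Aqp11 and Bag1 84780 bases from Aqp7. Faim2 lies 50890 bases from Aqp2 and 62617 bases from Aqp5. Mindy4, the tested gene next to Aqp1, had -0.70.

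Promoter windows of 250 bases before the start were given by RefSeq on GRCm38.p6 for 9 of the 10 genes. Those of Aqp1 and Aqp3 are shown because these genes had the largest fall and the largest rise among the tested members, with motif matches in capitals and the bases in the direction of transcription.
Aqp1, chr6:55336049-55336298, plus strand: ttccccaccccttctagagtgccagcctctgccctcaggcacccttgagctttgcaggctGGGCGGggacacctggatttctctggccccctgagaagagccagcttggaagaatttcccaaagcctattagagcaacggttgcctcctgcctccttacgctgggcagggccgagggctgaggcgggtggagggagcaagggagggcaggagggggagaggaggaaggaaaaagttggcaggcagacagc
Aqp3, chr4:41098184-41098433, minus strand: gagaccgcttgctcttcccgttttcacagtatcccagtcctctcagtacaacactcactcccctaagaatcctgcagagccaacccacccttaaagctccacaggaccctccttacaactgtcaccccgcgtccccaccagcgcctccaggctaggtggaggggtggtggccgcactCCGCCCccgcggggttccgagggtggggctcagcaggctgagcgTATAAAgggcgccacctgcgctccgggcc

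Letters of 5 motifs were searched on both strands: the GC box GGGCGG, the TATA box TATAAA, the E-box CACGTG, the AP-1 site TGACTCA and the CRE TGACGTCA. The Aqp1 window held 1 GC box, 190 bases before the start. The Aqp3 window held 1 GC box, 73 bases before the start, and a TATA box that begins 29 bases before it. The Aqp5 window held 2 GC boxes and 1 E-box and had the highest share of G and C among the members, 78.4%, against 62.0% for Aqp1 and 64.0% for Aqp3. Of 32851 windows of all genes, 32.7% held a GC box, 12.4% a TATA box and 6.02% the E-box, so these matches are a description of letters and not of binding.

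Patterns over the 6 libraries were compared by Pearson r of log2 CPM, among tested genes whose average log2 CPM reached 3. Predicted genes and genes named only by a clone or identifier were left out. The genes most like each called member are named. For Aqp1 these were Ccbe1, the noncoding RNA gene Meg3 and the matrix gene Mgp, each with r above 0.999 and log2 fold changes of -4.31, -5.05 and -3.44. For Aqp5 they were Shc2, Cnot2 and Elf3, an epithelial transcription factor gene (r = 0.998 for each), and for Aqp3 Kif13a, the receptor tyrosine kinase gene Erbb2 and Sppl3 (r = 0.999 for each). For Aqp11 they were the receptor gene Mst1r, Flrt3 and Stom (r = 0.997, 0.995 and 0.994). With 2 groups of 3 libraries such values of r are common: 1297 of 9954 genes had r above 0.95 with Aqp1, and 1269 with Aqp5. Of 9955 genes 1505 had r above 0.95 with Aqp3, and fewer, 379, with Aqp11.

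Water follows salt, and of 20 tested genes of salt and bicarbonate transport 9 were higher and 5 lower in PLD. Over all tested genes 27% were higher and 28.4% lower. The median log2 fold change of the list was 0.21, against 0.01 over all genes. The calcium-gated chloride channel gene Ano1 averaged 917 CPM in PLD and 156 CPM in WT (log2 fold change 2.56 ± 0.16 SE). Kcnn4, a calcium-gated potassium channel gene, rose by 2.18 ± 0.18 and Car4, a membrane carbonic anhydrase gene, by 4.13 ± 0.45. The large-conductance potassium channel gene Kcnma1 fell by 3.26 ± 0.17, Cftr, the cAMP-gated chloride channel gene, by 2.24 ± 0.39, and the bicarbonate cotransporter gene Slc4a7 by 0.90 ± 0.15. The Slc4a7 call was lost under the uncentred removal of a length trend (adjusted p = 0.0924).

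Of 14 tested genes of hormone and cAMP control of water channel traffic 3 were higher and 7 lower in PLD (median -0.52). Of all tested genes 27% were higher and 28.4% lower. Sctr, the receptor gene for secretin, the hormone that drives ductal bile flow, had 0, 1 and 4 reads in PLD, and 37, 40 and 34 in WT. Per total reads this was a ratio of 0.0449, PLD over WT (edgeR adjusted p = 8.69e-04). Its 95% exact binomial interval was 0.0143 to 0.108, which leaves out the spread between libraries. The Sctr log2 fold change of -4.31 was -5.79 without PLD replicate 3, which held 4 of the 5 PLD reads. The vasopressin receptor gene Avpr1a had 2, 2 and 1 reads in PLD, and 32, 30 and 32 in WT, and Avpr2, the receptor gene that controls Aqp2 in kidney, had at most 3 reads in any library. Gnas, which encodes the stimulatory G protein subunit, fell by 1.14 ± 0.17, while Gprc5a, an orphan receptor gene (3.56 ± 0.36), Sstr2, a somatostatin receptor gene (1.51 ± 0.31), and the phosphodiesterase gene Pde4d (0.44 ± 0.12) rose. The Pde4d call was lost without WT replicate 2 (adjusted p = 0.0541).

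Among 22 genes of partner and anchoring proteins 7 were higher and 6 lower (median -0.12), near the 27% and 28.4% of all tested genes. Ezr, encoding the membrane-actin linker ezrin, averaged 2350 CPM in PLD and 427 CPM in WT (log2 fold change 2.46 ± 0.18 SE). Mal, a protein of apical membrane traffic, rose by 2.81 ± 0.25 and Myo5b, a motor of recycling vesicles, by 1.68 ± 0.17. Dtna, encoding the anchoring protein dystrobrevin, fell by 2.15 ± 0.18, the vesicle fusion gene Snap23 by 0.87 ± 0.11 and the ubiquitin ligase gene Nedd4 by 0.56 ± 0.12, a call lost under both removals of a gene length trend. Trpv4, an osmosensitive calcium channel gene, did not pass, at -0.05 on the log2 scale.

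Among 11 genes of glycerol handling 5 were higher and 2 lower (median 0.45), where 27% and 28.4% of all tested genes were. The glycerol-3-phosphate dehydrogenase genes Gpd1 and Gpd2 rose by 1.39 ± 0.11 and 2.01 ± 0.17, and the glycerol kinase gene Gk by 1.83 ± 0.26. A link of these genes to Aqp3 was not tested. Mgll, encoding the lipase that frees glycerol from monoglycerides, fell by 2.87 ± 0.22. Ppara fell by 0.93 ± 0.33, a call lost under 9 other settings. Of 15 tested genes of the osmotic stress response 3 were higher and 5 lower (median -0.16), near the same shares of all tested genes. Sgk1, a salt-regulated kinase gene, fell by 1.77 ± 0.13, the volume-regulated channel subunit gene Lrrc8c by 2.55 ± 0.23 and the inositol transporter gene Slc5a3 by 0.98 ± 0.13. The subunit gene Lrrc8d rose by 0.71 ± 0.10, the taurine transporter gene Slc6a6 by 0.90 ± 0.19 and the kinase gene Oxsr1 by 0.44 ± 0.10. Endothelial and smooth muscle markers fell in the same libraries (medians -3.32 and -3.50) and cholangiocyte markers mostly rose (median 1.49), and their part in these lists was not tested.

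**Figure D5:**
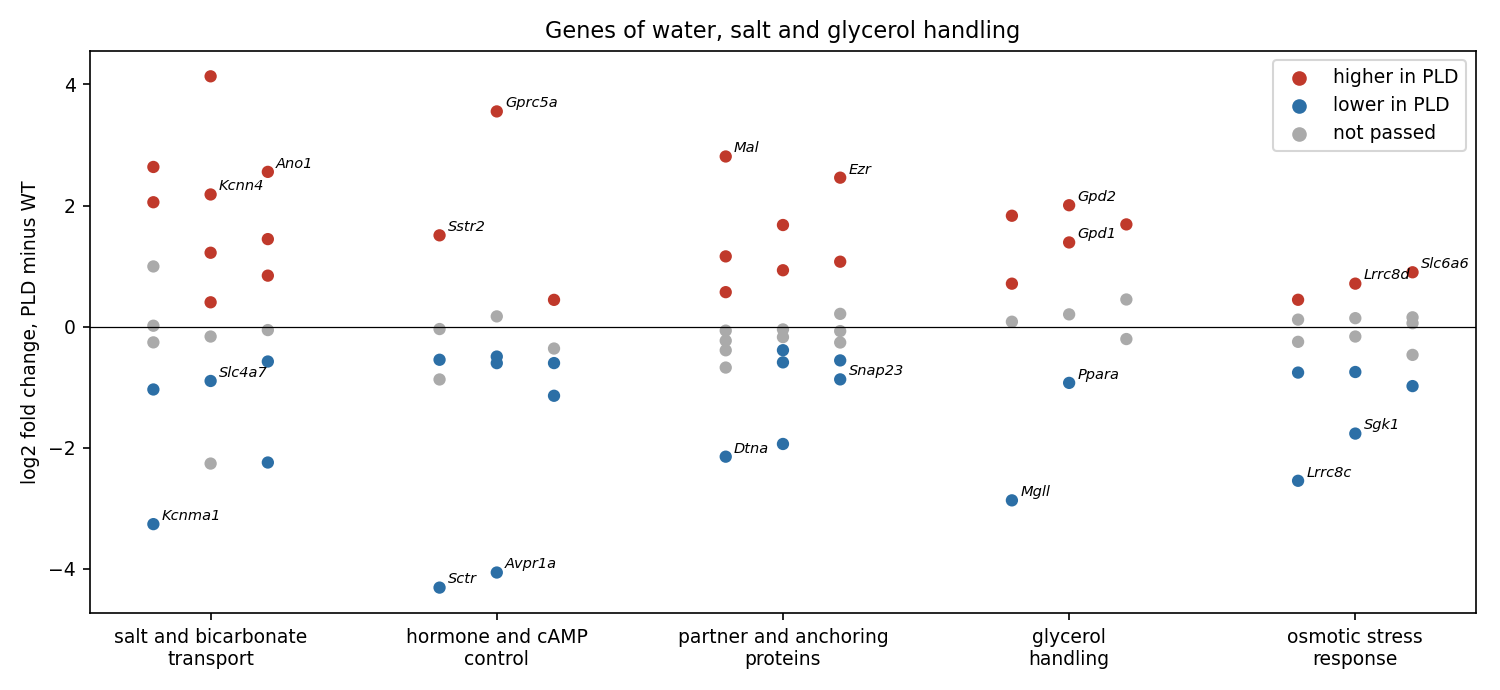
Log2 fold change, PLD minus WT (vertical axis), of the tested genes of 5 lists of water, salt and glycerol handling (points, spread sideways for legibility). Red points are higher and blue points lower in PLD by edgeR at an adjusted p of 0.05, and each list holds genes of both directions, from Car4 at 4.13 to Sctr at -4.31.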

How the data were processed

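Each library has 1 table of raw counts per gene, which the authors made with featureCounts 1.6.0 on GENCODE vM25 (mm10), per the file headers, setting no option for strand, read pairs or multi-mapping reads. The submitters' processing notes also name STAR 2.7.4a, SAMtools 1.12 and, of the authors' tools, DESeq2 1.26.0. Symbols came from GENCODE vM21 for 55141 of 55401 IDs. Exon lengths and coordinates are those of the tables.

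Counts were filtered by filterByExpr, scaled by TMM and tested with edgeR 4.0.16 (R 4.3.3) without covariates, over 15334 genes that held at least 99.8% of the reads of each library. P-values were adjusted by Benjamini and Hochberg over all of them, with a threshold of 0.05. CPM values are TMM-normalised. A floor of 3 reads corresponds to 0.180 to 0.190 CPM. Functions were tested on simulated data. No pair of libraries agreed within sampling noise (chi-square per degree of freedom of at least 9.72).

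The members and gene lists were chosen with earlier results of these data known. Of each list of water, salt and glycerol handling, up to 3 genes per direction with the smallest p are named. The members are named in full. Other named genes were chosen after their values were seen. Alternatives were DESeq2 1.42.0, limma-voom (limma 3.58.1), other size factors and filters, a robust fit, a replicate block, removal of a gene length trend (loess, span 0.5) and leaving out each library. The Aqp8 ratio without WT replicate 1, the ratios of Aqp1 to each endothelial marker, and the intestinal list and pancreatic genes were added after seeing the data.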

Additional observations from a re-analysis of the deposited data

How the results depend on the processing

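Aqp1, Aqp3 and Aqp5 kept direction and call under every alternative run, and Aqp11 under all but 1, without WT replicate 3. The count of aquaporin genes lower in PLD was 1, and 2 without a filter on low counts, where Aqp8 entered the test. When single libraries were left out it ranged from 1 to 2 and the count of higher genes from 2 to 3. Aqp9 passed the test under none of them and ranged from -0.22, a change of sign without PLD replicate 1, to 1.10 without WT replicate 2. Of all calls 48.7% were higher in PLD, against 61.1% with the length trend taken out uncentred, where the median gene lay at 0.19. Of list counts, 31 moved by more than 1.5 times and 513 did not, and 13 values of named list genes lost the call, 9 of them those of Ppara. The replicate numbers are not shown to pair libraries: deviations of same-numbered libraries correlated at 0.156, 0.0363 and 0.0613, and PLD replicate 2 correlated best with WT replicate 3 (0.122). With the replicate block 3920 genes were higher and 4242 lower, against 4136 and 4357 without it, and the aquaporin counts stayed at 3 and 1. Depth limits Aqp2, Aqp4, Aqp6, Aqp7 and Aqp8, and WT values of Aqp3, which lie near 3 reads.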
